A study of Mus musculus with 9 samples.

Results

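The opioid family of the mouse was read in hippocampal RNA as 7 genes, 4 receptors and 3 precursors of the peptides that activate them. The receptors were Oprm1 (mu), Oprk1 (kappa), Oprd1 (delta) and Oprl1 (the nociceptin receptor), and the precursors were Pdyn, Penk and Pnoc. The 7 were chosen by name, through their Ensembl identifiers in GENCODE M21, and all 7 of 7 were among the 14779 genes of the deposited table and among the 14696 genes tested. The 9 libraries of polyadenylated RNA form 3 groups of 3. Air+IgG mice breathed air and received IgG, the control for the antibody treatment. Chronic intermittent ethanol was combined with IgG in the CIE+IgG group and with an antibody that binds the cytokine interleukin 17A in the CIE+IL17 Ab group. All 3 groups therefore received an antibody, no group combined air with the antibody against interleukin 17A, and the design text gives 3 mice for each group. The sources used here do not give the strain, sex and age of the mice or the doses.

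Opioid receptors are G protein-coupled receptors that couple to inhibitory G proteins, lower cyclic AMP, open inwardly rectifying potassium channels and close presynaptic calcium channels, so that they quiet the neurons and terminals that carry them. Enkephalins from Penk act mainly at the delta and mu receptors, dynorphins from Pdyn at the kappa receptor, and nociceptin from Pnoc at Oprl1. In the hippocampus, dynorphin is a peptide of dentate granule cells and their mossy fibres, mu and delta receptors are carried largely by interneurons, and Penk and Pdyn are both known for strong expression in the neighbouring striatum. Mu receptors are known for very high density in the medial habenula and are present in thalamus. Opioid signalling is a known part of alcohol reward, and an opioid receptor antagonist is used to treat alcohol dependence.

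The precursors differ in which peptide is coded and how often. In the GENCODE M21 coding sequences, Penk held 6 in-frame runs of codons for Met-enkephalin and 1 for Leu-enkephalin, Pdyn held 3 runs for Leu-enkephalin, with which the dynorphins begin, and Pnoc held 0 of both and 1 run for the start of nociceptin. The runs below show this difference between the 3 precursors, with the peptide codons in capitals and the adjoining codons, most of which code the basic residue pairs where the precursor is cut, in lower case.
Penk, Met-enkephalin run 1: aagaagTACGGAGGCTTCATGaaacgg
Penk, Met-enkephalin run 5: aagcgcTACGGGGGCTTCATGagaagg
Penk, Leu-enkephalin run: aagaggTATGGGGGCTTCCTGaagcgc
Pdyn, Leu-enkephalin run 1: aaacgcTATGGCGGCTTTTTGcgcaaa
Pdyn, Leu-enkephalin run 2: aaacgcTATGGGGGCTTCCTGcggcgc
Pnoc, start of nociceptin: aaaaggTTTGGGGGCTTCaccggg

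The libraries held 7372658 to 11894628 estimated counts, and values are given as CPM (counts divided by the library's TMM-scaled total, on the usual scale of this unit). Hippocampal marker lists were present in every library, with summed levels of 420 to 1596 CPM for 10 dentate granule cell genes and 216 to 838 CPM for 10 CA1 pyramidal genes. Both lists had their lowest sums in CIE+IL17 Ab libraries. Markers of 2 neighbouring regions differed between libraries. The 11 tested thalamus and habenula genes summed to 165 to 224 CPM in Air+IgG, 214 to 340 CPM in CIE+IgG and 1030 to 1747 CPM in CIE+IL17 Ab. Of these, Pou4f1, a transcription factor of habenular neurons, had 0 or 1 count in each of the 6 IgG libraries. Isl1 of the striatum list was at 0 in 1 Air+IgG library. The 13 striatum genes summed to 1258 CPM in CIE+IgG replicate 3 and 800 CPM in CIE+IL17 Ab replicate 3, and to 242 to 283 CPM in the other 7 libraries. Replicate 2 of Air+IgG and replicate 1 of CIE+IL17 Ab held 7.13% and 6.71% of their counts in the gene Lars2, against at most 0.021% elsewhere. With CIE+IL17 Ab against Air+IgG, where 6.83% of all genes rose and 6.71% fell, 7 of 8 oligodendrocyte genes rose, 5 of 10 CA1 genes fell, 5 of 14 interneuron genes fell, of 8 microglia genes 3 fell, of 10 genes of meningeal fibroblasts 3 fell, of 10 CA2 and CA3 genes 3 rose, and of 8 astrocyte genes 1 fell. Choroid plexus genes summed to 72.3 to 7345 CPM within CIE+IL17 Ab alone, and 0 of 10 passed. In such bulk tissue, a change in the number of cells of a type and a change in RNA per cell cannot be told apart. The p-values judge differences between group means against the spread between these libraries, and do not separate the treatments from differences in tissue content.

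Per kilobase of exon, the nociceptin receptor Oprl1 and the enkephalin precursor Penk had the highest levels of the family in the air controls, and the kappa receptor Oprk1 the lowest. Lengths are those of all annotated exons joined unless the longest transcript is named, and levels between genes are compared per kilobase only. In Air+IgG, Oprl1 had 12.3 ± 2.76 CPM per kilobase (SD, n = 3), Penk 10.2 ± 2.90, Oprd1 4.22 ± 0.129, Pdyn 3.27 ± 1.15, Pnoc 2.45 ± 0.323, Oprm1 0.731 ± 0.175 and Oprk1 0.207 ± 0.122. The library ranges of Oprl1 and Penk overlapped, as did those of Oprd1 and Pdyn and those of Pdyn and Pnoc. Those of Penk and Oprd1, of Pnoc and Oprm1, and of Oprm1 and Oprk1 did not. Oprm1 has 31 annotated transcripts, whose joined exons measure 8037 bases against 2420 for the longest single transcript. With the longest transcript as length, its level was 2.43 ± 0.582 CPM per kilobase (SD, n = 3). By the means it was still above Oprk1 only, but within its spread level with Pnoc at 2.45 ± 0.323.

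**Figure D1:**
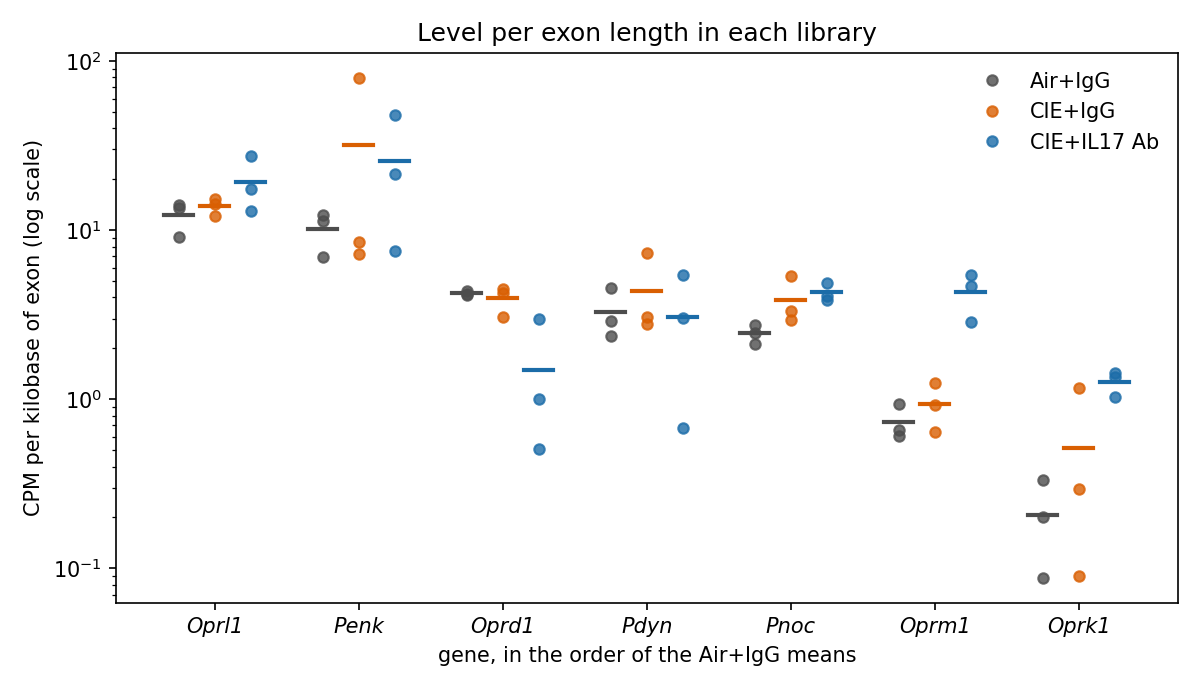
Level per exon length (CPM per kilobase, log axis) of the 7 genes in each of the 9 libraries, coloured by group, with bars at the group means and genes in the order of the Air+IgG means. Oprm1 moves from 0.731 in Air+IgG to 4.31 in CIE+IL17 Ab. Penk has 1 library far above the others in CIE+IgG, at 79.3, and spreads from 7.52 to 48.2 in CIE+IL17 Ab.

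In CIE+IgG the 2 highest and the 2 lowest of the 7 were the same genes, but the order rested on few libraries. Penk had 31.7 ± 41.3 CPM per kilobase (SD, n = 3), a spread larger than its mean, and Oprl1 had 13.9 ± 1.64. Oprk1 stayed lowest at 0.515 ± 0.569, and its range overlapped that of Oprm1. In CIE+IL17 Ab the order differed. Oprm1 stood at rank 3 with 4.31 ± 1.3 CPM per kilobase (SD, n = 3), level with Pnoc at 4.29 ± 0.537 within its spread. Oprd1 was at rank 6 with 1.49 ± 1.3, above Oprk1 at 1.27 ± 0.217 with overlapping ranges. With the longest transcript as length, Oprm1 kept rank 3 at 14.3 ± 4.30, above Pnoc at 4.29 ± 0.537. By that length Oprk1, at 2.49 ± 0.425, stood above Oprd1, at 1.49 ± 1.3.

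Ethanol exposure with IgG did not separate the family from the air controls at the threshold used. Of the 7 members, 0 passed for CIE+IgG against Air+IgG in edgeR, where 0% of all genes tested passed, and 0 passed in DESeq2. At an unadjusted p under 0.05, 1 of the 7 was found, Pnoc, where 2.76% of all genes were. Pnoc was also the 1 member whose groups did not overlap, and it was higher, where 9.44% of all genes did not overlap, 4.64% higher and 4.8% lower. The members' log2 fold changes were above 0 in 6 of 7, where those of 7052 of all 14696 genes tested were. Their median was 0.44, against -0.0073 for all genes tested. Much of this rested on 1 library: without CIE+IgG replicate 3, Oprk1, Pdyn and Penk had -0.14, -0.15 and -0.36 in place of 1.29, 0.44 and 1.65.

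With the antibody in ethanol-exposed mice, the mu receptor gene alone of the family passed the test. Against CIE+IgG, 1 of the 7 members passed, Oprm1, and it rose, where 3.18% of all genes tested passed, 1.78% higher and 1.41% lower. Oprm1 was higher and Oprd1 lower without overlap of the groups, 2 of 7, where 25.9% of all genes did not overlap, 12.7% higher and 13.2% lower. The members' median was 0.14, against 0.015 for all genes. An unadjusted p under 0.05 (edgeR) was found for Oprm1 and Oprd1, where 22.3% of all genes had one. Against Air+IgG, 1 of the 7 passed, again Oprm1, where 13.5% of all genes tested passed, 6.83% higher and 6.71% lower. Oprm1, Oprk1 and Pnoc were higher and Oprd1 lower without overlap, 4 of 7, where 35.3% of all genes did not overlap, 17.3% higher and 18.1% lower. The median was 0.80, against 0.012 for all genes. Oprm1, Oprk1, Oprd1, Oprl1 and Pnoc had an unadjusted p under 0.05 (edgeR), where 32% of all genes did. The comparisons share libraries: both antibody comparisons use the CIE+IL17 Ab libraries, and both comparisons with air use the Air+IgG libraries.

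**Figure D2:**
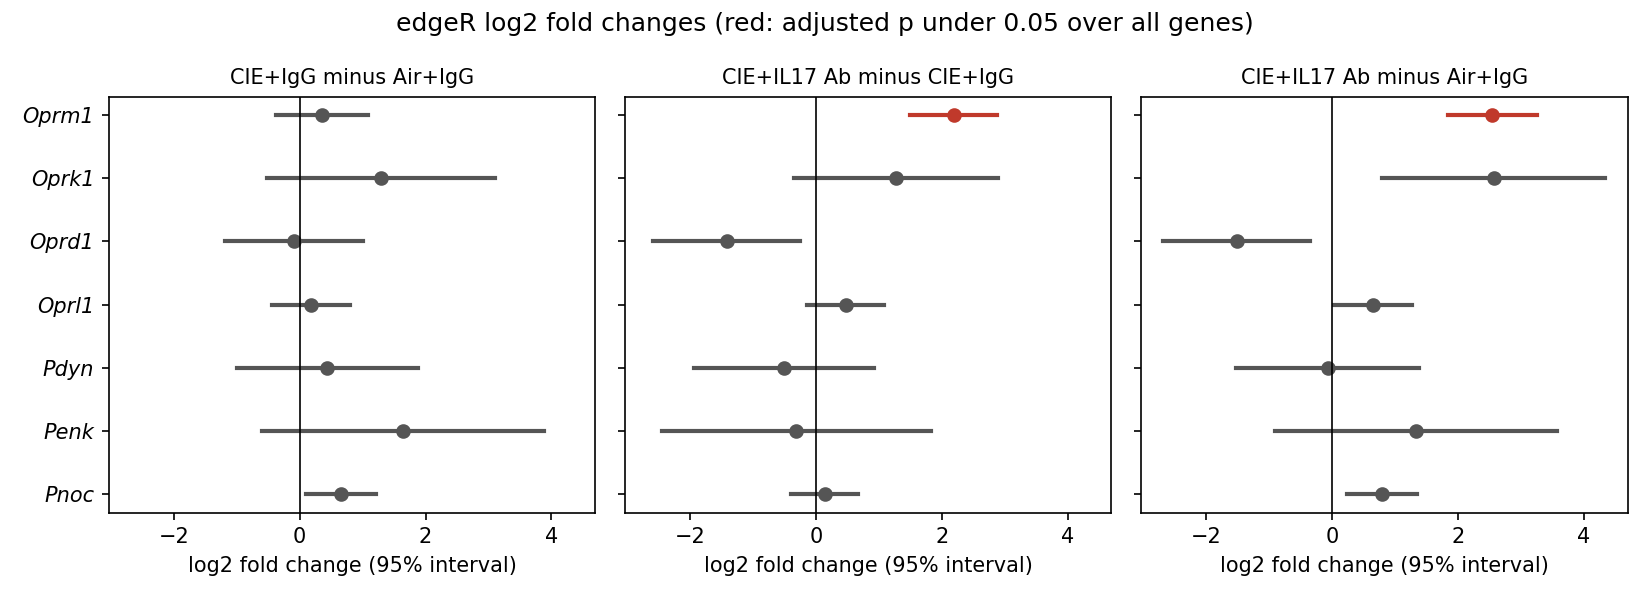
Log2 fold changes of the 7 genes with 95% intervals in 3 comparisons (edgeR, 9 libraries in one fit), red where the adjusted p over all genes was under 0.05. Oprm1 is red in both comparisons with CIE+IL17 Ab, at 2.19 and 2.55, and the intervals of Pdyn and Penk cross 0 in all 3.

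Among the receptors, the mu receptor gene Oprm1 (chromosome 10, 6758506 to 7038198, plus strand, GRCm38) separated the antibody group most clearly. The Air+IgG libraries had 5.31, 4.84 and 7.48 CPM, the CIE+IgG libraries 7.41, 5.15 and 10.1 CPM, and the CIE+IL17 Ab libraries 37.4, 43.4 and 23.1 CPM. Every CIE+IL17 Ab library was above every other library, while the air and ethanol groups with IgG overlapped. Against CIE+IgG, Oprm1 rose to 4.56 times the level, or 2.19 on the log2 scale (standard error 0.304, 95% interval 1.5 to 2.88, adjusted p = 0.0220 by edgeR's quasi-likelihood test over all genes). It ranked at 37 of 14696 genes by p. Against Air+IgG, Oprm1 rose to 5.84 times the level, or 2.55 on the log2 scale (standard error 0.312, adjusted p = 0.0100, edgeR).

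The rise kept its direction in every alternative run, and its call did not hold in all of them. The log2 fold change against CIE+IgG lay between 1.98 and 2.66 in 22 alternatives, and the adjusted p rose above 0.05 in 8 of them. The Oprm1 call was lost without Air+IgG replicate 1 (0.0537) or 3 (0.0520), without CIE+IgG replicate 1 (0.120) or 2 (0.0798), and without CIE+IL17 Ab replicate 2 (0.0922). It was also lost with the replicate number as a block (0.0882), with only the 2 groups in the fit (0.0896), and when the fit held just the 6 libraries whose label numbers are 54 to 60 (0.135), where the value was 2.25. Against Air+IgG, the call was lost in 2 of 22 alternatives, without Air+IgG replicate 3 (0.0537) and with the libraries of label numbers 54 to 60 alone (0.0974).

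The thalamus and habenula list moved with Oprm1: all 11 of its tested members had log2 fold changes above 0 against CIE+IgG, 10 rose, and the median was 3.39, where the median of all genes tested was 0.015. Its most abundant member, Rora, had 326 to 593 CPM in CIE+IL17 Ab against 83.5 to 135 CPM in the 6 IgG libraries. The 3 CIE+IL17 Ab libraries stood in the same order for Oprm1 and for the summed list, highest in replicate 2 and lowest in replicate 3. Single members of the list differed in this. Tcf7l2 kept the order, with 176, 231 and 126 CPM in replicates 1, 2 and 3. Rora was lowest in replicate 1, with 326, 593 and 356 CPM, and Slc17a6 highest there, with 483, 390 and 166 CPM. Prkcd did not set the 3 libraries apart, with 55.3 CPM in CIE+IL17 Ab replicate 1 against 65.9 and 106 CPM in CIE+IgG replicates 1 and 3. Oprm1 and 10 of the 11 markers separate the same 3 libraries. A change of Oprm1 within hippocampal cells and a difference in thalamic and habenular RNA therefore cannot be told apart. Ipcef1, a gene on the opposite strand that overlaps Oprm1 over 152403 bases, had 27.4 ± 10.6 CPM in CIE+IL17 Ab and 48.9 ± 17.5 CPM in CIE+IgG (SD, n = 3). Its log2 fold change of -0.83 (adjusted p = 0.153, edgeR) was opposite in sign to that of Oprm1. Against Air+IgG, Ipcef1 had -1.32 and passed (adjusted p = 0.0287, edgeR). Whether the counting used strand is not given in the sources used here.

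**Figure D3:**
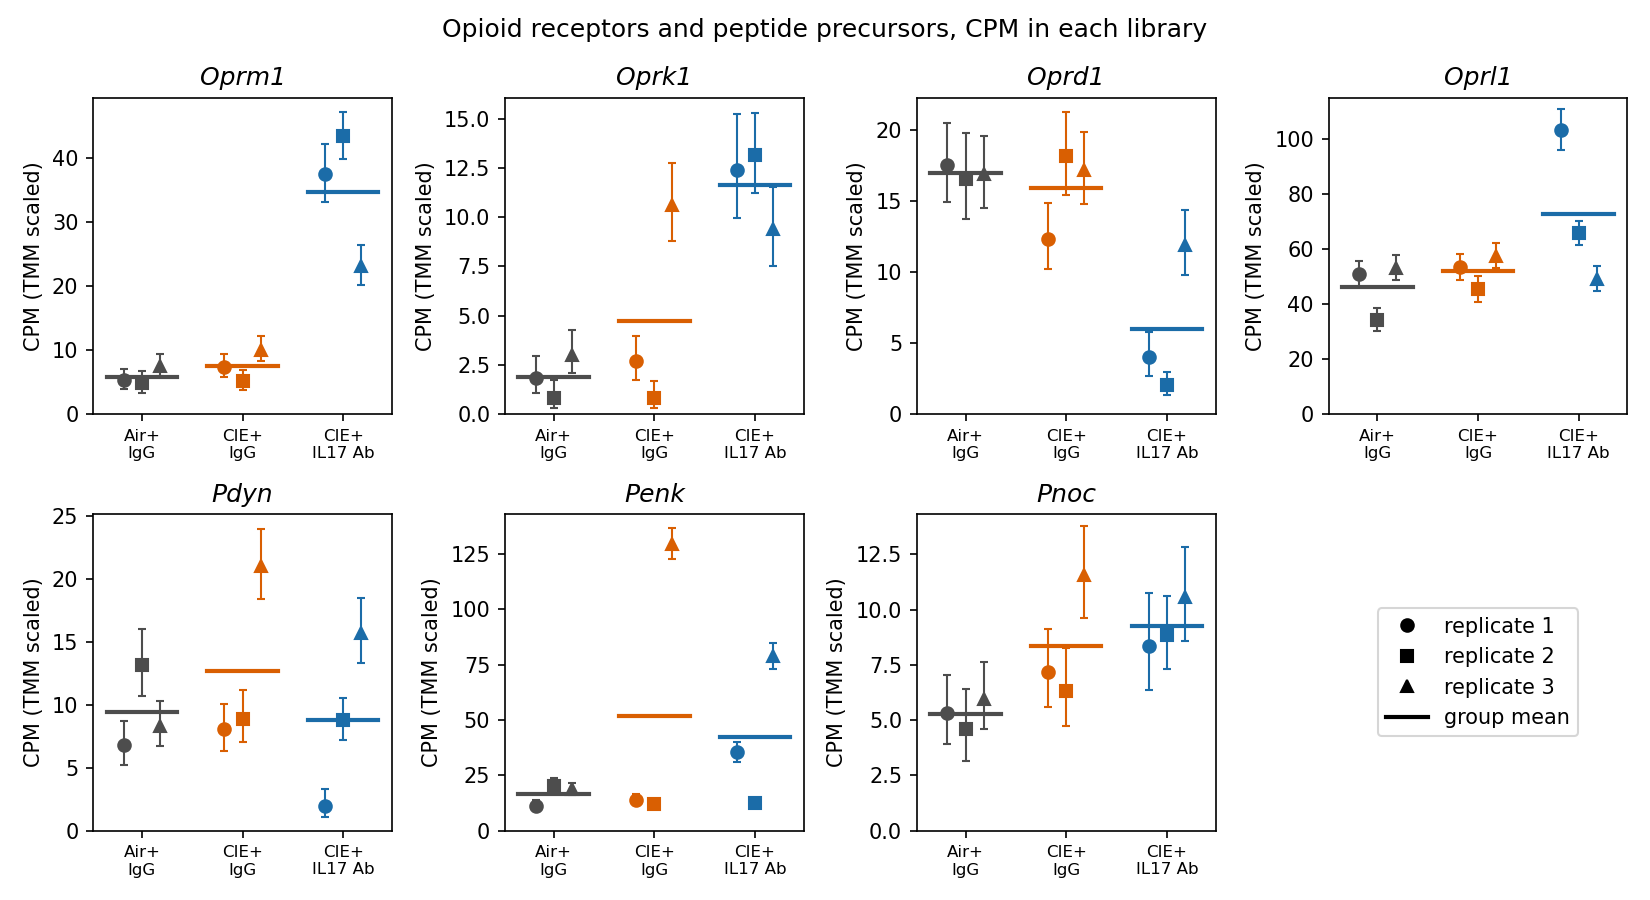
CPM of the 7 genes in each library (circle, square and triangle for replicates 1, 2 and 3), with 95% exact Poisson intervals that cover counting error only and bars at the group means. Oprm1 lies above 23 CPM in the 3 CIE+IL17 Ab libraries and at or below 10.1 CPM in the other 6, and Penk stands out in CIE+IgG replicate 3 at 130 CPM.

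The kappa receptor gene Oprk1 (chromosome 1, 5588466 to 5606131, plus strand), the target of dynorphin, had the lowest level per kilobase of joined exons in all 3 groups, and by the longest transcript in the 2 IgG groups only. It had 1.84, 0.807 and 3.03 CPM in Air+IgG, 2.68, 0.819 and 10.6 CPM in CIE+IgG and 12.4, 13.1 and 9.39 CPM in CIE+IL17 Ab. The antibody group lay above the air controls in every library, and 1 CIE+IgG library, replicate 3, lay within its range. The lowest values rest on few counts, 6.04 in Air+IgG replicate 2 and 7 in CIE+IgG replicate 2, with Poisson intervals of 0.296 to 1.76 and 0.329 to 1.69 CPM.

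Against Air+IgG, Oprk1 had a log2 fold change of 2.57 (standard error 0.778) and did not pass (adjusted p = 0.0630, edgeR). It passed in 7 of 21 alternatives, among them DESeq2 (0.00480), limma-voom (0.0497), the block for label number sets (0.0249), and fits that left out CIE+IgG replicate 2 (0.0335) or 3 (0.0168). Against CIE+IgG, it was 1.27 (95% interval -0.35 to 2.89, adjusted p = 0.334, edgeR). Without CIE+IgG replicate 3, the library with 1258 CPM of striatum genes, Oprk1 had 2.70 in this comparison and passed (adjusted p = 0.0414), and without CIE+IgG replicate 2 it had 0.79 (adjusted p = 0.564). The thalamus and habenula sum in CIE+IgG replicate 3 was 340 CPM, the highest of the 6 IgG libraries. The part of both marker lists in these values was not tested.

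The delta receptor gene Oprd1 (chromosome 4, 132110726 to 132144486, minus strand), a receptor for enkephalins, had the opposite pattern. Its values were 17.6, 16.5 and 16.9 CPM in Air+IgG, 12.4, 18.1 and 17.2 CPM in CIE+IgG and 4.03, 2.03 and 11.9 CPM in CIE+IL17 Ab. All 3 antibody libraries were below all 6 others, though replicate 3, at 11.9 CPM, came close to the lowest CIE+IgG library at 12.4 CPM. The log2 fold change of Oprd1 was -1.42 against CIE+IgG (standard error 0.511, adjusted p = 0.153) and -1.51 against Air+IgG (standard error 0.511, adjusted p = 0.0838), and neither passed in edgeR. Without CIE+IL17 Ab replicate 3, the values for Oprd1 were -2.45 (adjusted p = 0.00428) and -2.55 (adjusted p = 0.00259). Without CIE+IL17 Ab replicate 2, the first was -0.97 (adjusted p = 0.291) and the second -1.07. In DESeq2 both passed, with adjusted p of 0.0494 and 0.0187.

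Most markers of interneurons, CA1 neurons and dentate granule cells had log2 fold changes below 0, as Oprd1 did. Against CIE+IgG, 7019 of all 14696 genes tested had log2 fold changes below 0, and 1.41% fell. Of 14 interneuron genes, 11 had log2 fold changes below 0 in this comparison, with a median of -0.97, and 1 fell. Their summed levels overlapped between the groups, at 680 to 1296 CPM in CIE+IL17 Ab and 1101 to 1399 CPM in CIE+IgG. Of 10 CA1 genes, 4 fell, with a median of -1.59, and the summed level was 216 to 340 CPM against 519 to 739 CPM. Of 10 dentate granule cell genes, 9 were below 0 and 0 fell, with a median of -0.88. Against Air+IgG, where 6.71% of all genes fell, 5 interneuron genes, 5 CA1 genes and 0 dentate granule cell genes fell. The medians of the 3 lists were -0.89, -1.87 and -1.26. None of these 3 lists had a member at 0 in any library. Their part in the values of Oprd1 was not tested.

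The nociceptin receptor gene Oprl1 (chromosome 2, 181715016 to 181720985, plus strand) was the most abundant receptor of the family per kilobase of exon and did not pass in any comparison. Air+IgG libraries had 50.8, 34.2 and 53.1 CPM, CIE+IgG libraries 53.4, 45.3 and 57.4 CPM, and CIE+IL17 Ab libraries 103, 65.7 and 48.9 CPM. The high value was that of CIE+IL17 Ab replicate 1, and replicate 3 of that group lay within both IgG groups. The log2 fold change was 0.47 against CIE+IgG, with a 95% interval of -0.14 to 1.09 (adjusted p = 0.343), and 0.65 against Air+IgG (adjusted p = 0.141), and neither passed in edgeR. Without CIE+IL17 Ab replicate 1, which is also rich in Lars2, the value of Oprl1 against CIE+IgG was 0.14.

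Promoter sequence was at hand for 4 of the 7 members (Oprm1, Oprd1, Oprl1 and Pdyn) in RefSeq on GRCm38.p6. The pair shown here is that of the receptors with the opposite patterns, as 250 bases before a start site, read 5′ to 3′ on the strand of the gene, with matches to the searched motifs in capitals. The Oprm1 window at chr10:6788320-6788569 (plus strand) precedes an inner start site, lies within the gene and overlaps no annotated exon. The Oprd1 window at chr4:132144487-132144736 (minus strand) lies directly before the gene.
Oprm1: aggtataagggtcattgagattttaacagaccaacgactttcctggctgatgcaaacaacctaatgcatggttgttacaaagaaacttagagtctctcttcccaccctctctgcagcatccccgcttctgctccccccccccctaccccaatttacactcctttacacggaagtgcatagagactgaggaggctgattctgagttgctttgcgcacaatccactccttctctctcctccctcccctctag
Oprd1: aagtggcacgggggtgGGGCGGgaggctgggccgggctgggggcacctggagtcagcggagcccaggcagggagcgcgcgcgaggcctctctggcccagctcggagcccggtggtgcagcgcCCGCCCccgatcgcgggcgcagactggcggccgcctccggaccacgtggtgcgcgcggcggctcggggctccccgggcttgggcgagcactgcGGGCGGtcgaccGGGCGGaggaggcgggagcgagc

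The windows differed in base composition, with 50% G and C in Oprm1 and 80% in Oprd1. On both strands, 6 motifs were searched: the CRE (TGACGTCA, found in 1.55% of all 32851 such windows), its short form (TGACG, 17.8%, which the full CRE contains), AP-1 (TGANTCA, 6.75%), Tcf/Lef (CTTTGA, 13.8%), the Sp1 box (GGGCGG, 32.7%) and the TATA box (TATAAA, 12.4%). The Oprd1 window held 4 Sp1 boxes and none of the others, and the Oprm1 window held none of the 6. These matches are a description of the letters in these windows.

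Among the peptide precursors, the enkephalin gene Penk (chromosome 4, 4133531 to 4138819, minus strand) varied most between libraries of one group. It had 11.3, 20.2 and 18.6 CPM in Air+IgG, 14.0, 11.8 and 130 CPM in CIE+IgG and 35.3, 12.3 and 78.8 CPM in CIE+IL17 Ab. The 2 highest values belonged to replicate 3 of CIE+IgG and replicate 3 of CIE+IL17 Ab, which had 1258 and 800 CPM of striatum genes. In these 2 libraries Drd1 and Adora2a, dopamine and adenosine receptors of striatal neurons, had 73.0 and 34.4 CPM and 44.5 and 21.4 CPM, against at most 11.6 and 2.5 CPM in the other 7. Tac1 and Six3 of the same list did not set both libraries apart. Tac1 had 23.2 and 14.5 CPM in them but 31.1 CPM in CIE+IL17 Ab replicate 1. Six3 had 7.36 and 6.01 CPM in them and 6.18 CPM in CIE+IL17 Ab replicate 2.

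CIE+IL17 Ab replicate 1, at 35.3 CPM of Penk, had 242.1 CPM of striatum genes, the lowest sum of the 9. Air+IgG replicate 2 was close to this, at 242.5 CPM. By the striatum score (mean log2 CPM deviation of these genes) CIE+IL17 Ab replicate 1 was not lowest, at -0.42 in a range of -1.37 to 2.33. It had 15.7 CPM of Drd2, a dopamine receptor, close to the 17.5 CPM of replicate 3 of its group. A gene on the opposite strand, A830012C17Rik, overlaps Penk over 499 bases, and its level was not analysed here. The log2 fold change of Penk was 1.65 for CIE+IgG against Air+IgG, with a 95% interval of -0.59 to 3.89, and -0.31 for CIE+IL17 Ab against CIE+IgG, with one of -2.45 to 1.82. Without CIE+IgG replicate 3 they were -0.36 and 1.70, so both changed sign. With the striatum score as a covariate they were -0.26 and 0.21. No alternative brought Penk past the test in any of the 3 comparisons.

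**Figure D4:**
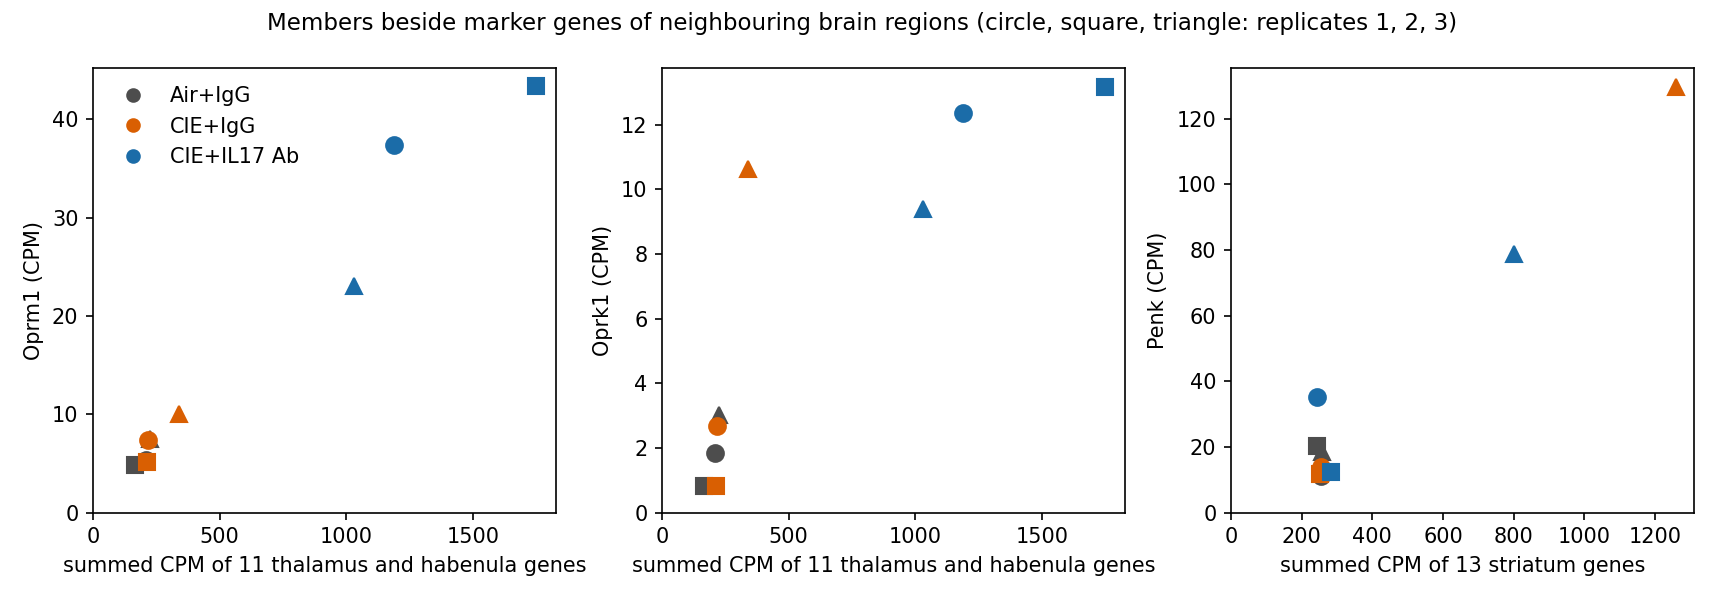
Oprm1 and Oprk1 (CPM) against the summed CPM of 11 thalamus and habenula genes, and Penk (CPM) against the summed CPM of 13 striatum genes, 1 point for each of the 9 libraries. The 3 CIE+IL17 Ab libraries lie apart at 1030 CPM of thalamus and habenula genes or more, and the 2 libraries with 800 CPM or more of striatum genes have the 2 highest Penk values.

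The dynorphin precursor Pdyn (chromosome 2, 129686565 to 129699844, minus strand) had 6.83, 13.2 and 8.33 CPM in Air+IgG, 8.05, 8.90 and 21.1 CPM in CIE+IgG and 1.95, 8.77 and 15.7 CPM in CIE+IL17 Ab. The highest values fell in the libraries rich in striatum genes and the lowest in CIE+IL17 Ab replicate 1, which rested on 14 counts. In that library the dentate granule cell genes, markers of the hippocampal neurons known to make dynorphin, summed to 420 CPM, the lowest of the 9, and Air+IgG replicate 2, with 13.2 CPM of Pdyn, had the highest sum, 1596 CPM. Both are also the libraries rich in Lars2, and the part of either in the Pdyn values was not tested. The groups overlapped in all 3 comparisons, with log2 fold changes of 0.44, -0.51 and -0.069 and adjusted p in edgeR of 1.0, 0.694 and 0.955. Without the 2 libraries rich in Lars2, the last was 0.67.

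The nociceptin precursor Pnoc (chromosome 14, 65400673 to 65425472, minus strand) varied less between libraries of one group than Penk and Pdyn did. It had 5.31, 4.57 and 5.97 CPM in Air+IgG, 7.20, 6.32 and 11.6 CPM in CIE+IgG and 8.34, 8.84 and 10.5 CPM in CIE+IL17 Ab. Both ethanol-exposed groups lay above the air controls without overlap, and they overlapped each other. For CIE+IgG against Air+IgG the log2 fold change of Pnoc was 0.66 (standard error 0.246, 95% interval 0.11 to 1.22), and it did not pass over all genes (adjusted p = 1.0, edgeR). The value was 0.35 without CIE+IgG replicate 3. For CIE+IL17 Ab against Air+IgG it was 0.80 (standard error 0.245, adjusted p = 0.0620, edgeR), and it passed in 4 of 22 alternatives, with adjusted p of 0.0351 in DESeq2 and 0.0274 without CIE+IgG replicate 3.

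**Figure D5:**
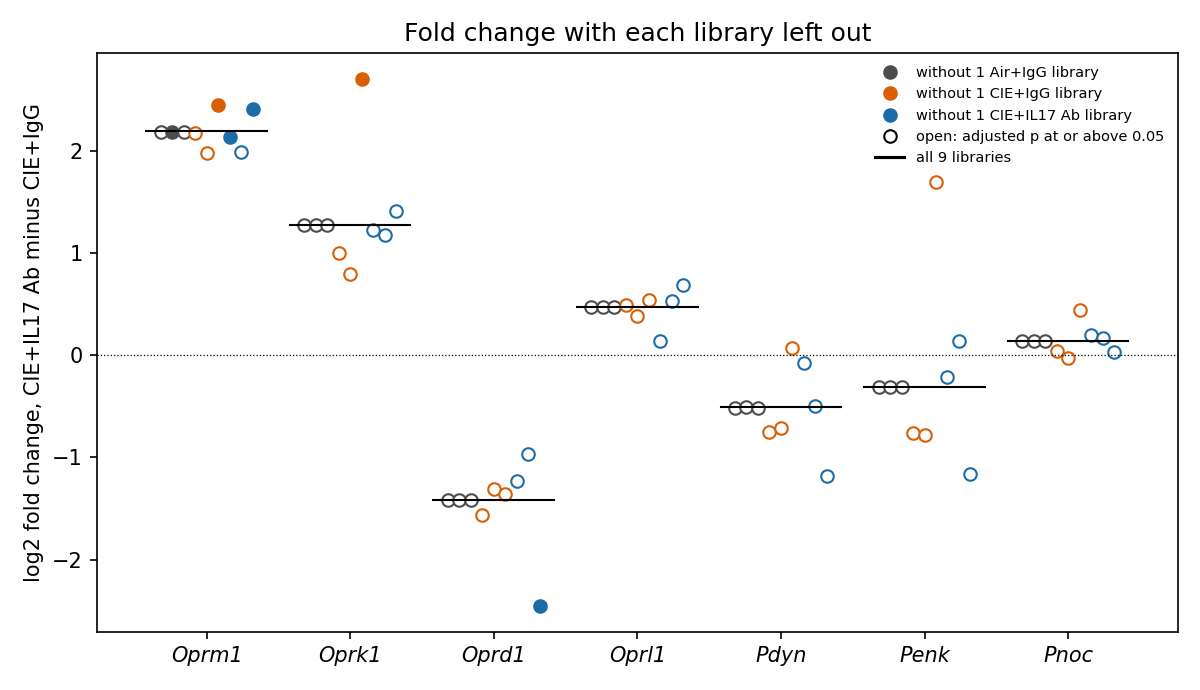
Log2 fold change of CIE+IL17 Ab against CIE+IgG for the 7 genes with each of the 9 libraries left out in turn, coloured by the group of the library left out and filled where the adjusted p was under 0.05. Oprm1 stays between 1.98 and 2.45, Penk ranges from -1.16 to 1.70, and Oprd1 reaches -2.45 without CIE+IL17 Ab replicate 3.

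Genes whose log2 CPM over the 9 libraries resembled a member most were listed with Pearson's r as the measure of likeness. For Oprm1 they were Etnppl, a phospholyase of astrocytes (r = 0.991), Col16a1, a collagen chain (0.989), and an identifier without a symbol, ENSMUSG00000042943 (0.988). Etnppl had 52.9 to 94.9 CPM in CIE+IL17 Ab and 16.4 to 30.5 CPM in the IgG libraries, so the gap between those sets enters the measure. By ranks (Spearman) the 3 values for Oprm1 were 0.983, 0.967 and 0.983. For Penk they were Rgs9 (0.954), a regulator of G protein signalling in striatal neurons, the phosphodiesterase Pde1b (0.951) and the retinoic acid receptor Rarb (0.941). Rgs9 and Rarb belong to the striatum list, and with ranks (Spearman) the 3 values for Penk were 0.733, 0.817 and 0.767.

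For Oprk1 the nearest were Bbs2 (0.987), Zcchc12 (0.985) and Plppr3 (0.979), all with CIE+IgG replicate 3 above the other IgG libraries. For Oprd1 they were Fbxw5 (0.979), Bnip1 (0.972) and Angel2 (0.972), whose levels moved far less than that of Oprd1, as with 48.7 to 58.9 CPM of Fbxw5 in CIE+IL17 Ab against 59.4 to 65.0 CPM in the IgG libraries. For Oprl1 they were Phyh (0.991), Lgmn (0.987) and the potassium channel Kcnj16 (0.987). For Pdyn they were the transcription factor Pax6 (0.965), Acvr1c (0.964) and Rybp (0.962), and for Pnoc the growth factor Vegfa (0.960), Morn2 (0.946) and Reep4 (0.945).

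Other genes of opioid ligands, processing and signalling were read from 7 lists. For ethanol exposure with IgG, 0 genes of the 7 lists passed. The counts of called members that follow stand against 3.18% of all genes tested in the comparison with CIE+IgG and 13.5% in that with Air+IgG. Among 10 tested ligands and receptors outside the family, 1 rose and 1 fell with CIE+IL17 Ab against CIE+IgG, and the median was -0.045. Gpr139, an orphan receptor known to oppose mu receptor signalling, rose from 0.638 ± 0.348 to 3.33 ± 1.12 CPM (SD, n = 3), or by 2.31 on the log2 scale (adjusted p = 0.0411, edgeR). Opcml, an opioid-binding cell adhesion molecule, fell from 376 ± 32.1 to 260 ± 27.2 CPM (adjusted p = 0.0398, edgeR). Against Air+IgG, Tacr1, the receptor for substance P, also rose, from 1.31 ± 0.221 to 13.2 ± 5.49 CPM (adjusted p = 0.0194, edgeR).

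Pomc, the precursor of beta-endorphin and of other peptides, was singled out after its values were seen. It had 191 counts in CIE+IgG replicate 3 (17.8 CPM), 39 in Air+IgG replicate 2 (5.24 CPM) and 2 to 16 in the other 7 libraries, and did not pass. The library with the highest Pomc was thus also the one with the highest Penk, Pdyn and Pnoc.

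Of 12 precursor-processing genes, 0 rose and 1 fell against CIE+IgG, with a median of 0.15. Chgb, a granin of secretory granules, fell from 426 ± 69.2 to 229 ± 47.1 CPM (adjusted p = 0.0375, edgeR). The prohormone convertase Pcsk2 and the carboxypeptidase Cpe, which cut and trim the precursors, had log2 fold changes of 0.18 and -0.12 and did not pass. Against Air+IgG, 2 rose and 1 fell: Chga, another granin, by 0.80, and Pcsk1n, a convertase inhibitor, by 0.49 on the log2 scale, with Chgb again lower. Of 12 peptide-degrading enzymes, 1 rose and 0 fell against CIE+IgG, with a median of 0.13. Ece2, an endothelin-converting enzyme that also cleaves opioid peptides, rose from 44.3 ± 7.40 to 81.4 ± 17.9 CPM (adjusted p = 0.0375, edgeR). Against Air+IgG 3 rose, Ece2, Ece1 and Prep, with log2 fold changes of 1.09, 0.41 and 0.43. Mme, neprilysin, the main enzyme known to break down enkephalin, had 0.67 against CIE+IgG and did not pass (adjusted p = 0.358, edgeR).

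Downstream of the receptors, 0 of 12 inhibitory G protein subunit genes and 0 of 14 genes of receptor kinases, arrestins and RGS proteins passed against CIE+IgG, with medians of -0.13 and 0.0054. Against Air+IgG, 1 G protein gene fell, Gnaz, from 86.3 ± 2.17 to 68.4 ± 3.70 CPM (SD, n = 3; adjusted p = 0.0366, edgeR). Of 12 effector genes, 0 rose against CIE+IgG, and 6 had log2 fold changes above 0. Of 4 potassium channel genes whose products opioid receptors open, 1 rose and 1 fell against Air+IgG, while Kcnj6 and Kcnj9, with log2 fold changes of -0.93 and -0.096, did not pass. Kcnj5 rose from 1.06 ± 0.206 to 8.70 ± 4.47 CPM (adjusted p = 0.0292, edgeR) and Kcnj3 fell from 268 ± 48.1 to 141 ± 15.5 CPM (adjusted p = 0.0263, edgeR).

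Of 11 tested regulators of precursor transcription, 1 fell against CIE+IgG and 3 fell against Air+IgG, with medians of -0.32 and -0.43. Fosl2, a subunit of AP-1, fell from 43.1 ± 13.1 CPM in CIE+IgG to 9.74 ± 2.79 CPM in CIE+IL17 Ab (adjusted p = 0.0178, edgeR), and Junb and Jun, its partners, fell against Air+IgG by 1.67 and 1.24 on the log2 scale. Creb1 and Kcnip3, an activator and a repressor of Pdyn, did not pass in any comparison. The rises of Gpr139, Tacr1 and Kcnj5, like the other rises and falls called in these lists, took place in the libraries rich in thalamus and habenula genes. The same libraries had 216 to 340 CPM of CA1 genes, against 519 to 838 CPM in the IgG libraries. The part of either marker list in these values was not tested. Calls against CIE+IgG depended on single libraries. The called genes of the 7 lists were all lost without replicate 1 or 3 of Air+IgG, without replicate 1 or 2 of CIE+IgG, or without replicate 2 of CIE+IL17 Ab. Against Air+IgG, all were lost without Air+IgG replicate 3, where 0 of all genes passed.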

How the data were processed

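The deposited table holds expected counts per gene, as RSEM estimates them, for 14779 genes in 9 libraries, deposited without scaling to a common total. The submitters' processing notes name STAR 2.5.1a, RSEM 1.3.0 and GRCm38. Libraries were stranded and polyadenylated, per the labels' protocols. The sources used here give neither the annotation release nor a filter. Such counts split reads among genes with shared sequence, and 27.1% of values have decimals. Symbols and coordinates came from GENCODE M21 (14628 identifiers matched).

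Counts were rounded and kept with filterByExpr (minimum count 10). Tests used edgeR 4.0.16 in R 4.3.3 (TMM, glmQLFit with robust=TRUE, glmQLFTest) on all 9 libraries, with group means as the model, 6 residual degrees of freedom, Benjamini-Hochberg adjustment over 14696 genes and a threshold of 0.05. The standard error is the log2 fold change divided by the square root of F. Alternatives were DESeq2 1.42.0, its size factors, limma-voom 3.58.1, other filters, only the 2 groups compared, robust=FALSE, a replicate or label number block, the striatum score (mean log2 CPM deviation, prior count 2) as covariate, the libraries numbered 54 to 60, and each library left out. Leaving out the 2 libraries rich in Lars2, or the 2 highest in striatum genes, was chosen after seeing the data. Scripts were tested on simulated data. No libraries were identical (lowest chi-square per degree of freedom 3.94).

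Named genes were the 7 members, called genes of 7 pathway lists (at most 3 of smallest p per list and comparison), and the 3 genes most like each member. Pcsk2, Cpe, Mme, Creb1, Kcnip3, Kcnj6, Kcnj9 and Ipcef1 were added afterwards as examples. Of the marker lists, Rora was named as the most abundant member, and the other genes given with levels are examples outside this rule. A gene of the effector list is not reported here. The 11 marker lists hold genes of neighbouring regions and other cell types. Members and lists were chosen with earlier results of these data known.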

Additional observations from a re-analysis of the deposited data

How the results depend on the processing

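Over all genes, DESeq2 called 6 genes between CIE+IgG and Air+IgG in place of 0 (406 at an unadjusted p under 0.05 in edgeR). Between CIE+IL17 Ab and CIE+IgG, the count over all genes of 468 became 1481 with DESeq2, 776 with the label number block, 220 with the striatum score, 14 with the replicate block, 1 with only the 2 groups, 1 in the libraries numbered 54 to 60, 1590 without the 2 libraries highest in striatum genes, and 0 to 1313 with a library left out. Between CIE+IL17 Ab and Air+IgG, the count over all genes of 1990 became 2799 with DESeq2, 2094 with limma-voom, 2199 with the label number block, 2410 without the 2 libraries highest in striatum genes, 402 with the striatum score, 571 with the replicate block, 1192 with only the 2 groups, 2 in the libraries numbered 54 to 60, 1067 without the 2 libraries rich in Lars2, and 0 to 2305 with a library left out. Of the 7 members, the 1 called against CIE+IgG became 2 with DESeq2, 3 without the 2 libraries highest in striatum genes, 0 with the replicate block, the 2 groups or the libraries numbered 54 to 60, and 0 to 2 with a library left out. Against Air+IgG, 1 became 4 with DESeq2, 3 with limma-voom, the label number block, the 2 groups or without the libraries highest in striatum genes, 0 in the libraries numbered 54 to 60, and 0 to 3 with a library left out.

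Log2 fold changes that changed sign, none of them called, were these. For CIE+IgG against Air+IgG, Pdyn had -0.28 with the striatum score, -0.23 in the libraries numbered 54 to 60 and -0.14 without the libraries highest in striatum genes, where Penk had -0.26, -0.27 and -0.36 and Oprk1 had -0.13 in the last. With a library left out, the ranges there were -0.15 to 0.74 for Pdyn, -0.36 to 2.11 for Penk, -0.14 to 1.81 for Oprk1, -0.0039 to 0.29 for Oprl1 and -0.20 to 0.054 for Oprd1. For CIE+IL17 Ab against CIE+IgG, Penk had 0.086 with limma-voom, 0.10 with the replicate block, 0.31 with the label number block, 0.21 with the striatum score, 2.14 in the libraries numbered 54 to 60 and 0.84 without the libraries highest in striatum genes, and Pdyn had 0.083 in the libraries numbered 54 to 60. Ranges with a library left out were -1.16 to 1.70 for Penk, -1.19 to 0.070 for Pdyn and -0.025 to 0.44 for Pnoc. For CIE+IL17 Ab against Air+IgG, Penk had -0.051 with the striatum score, and Pdyn had 0.67 without the libraries rich in Lars2 and -0.75 to 0.38 with a library left out. The cause was not tested.

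The replicate numbers did not pair the libraries: of 9 same-numbered pairs, 2 had deviations correlated above 0.1 (-0.270 to 0.249), and 3 of 9 libraries correlated best with their own number. DESeq2 size factors, no filter, the stricter filter and robust=FALSE kept the counts of members called.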
